A study of Mus musculus with 6 samples.

Results

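Protocadherins are the most numerous group of the cadherin superfamily, calcium-binding adhesion proteins of the cell surface. The members described here were the protein-coding genes of the deposited tables whose symbol begins with Pcdh, and there were 36 of them among 39174 genes. RNA-seq was made from 6 libraries of primary mouse motoneuron cultures, 3 of genotype Nmd-/- and 3 of genotype Nmd+/+, all of a strain given as CD-1. The nmd allele is a mutation of Ighmbp2, a helicase gene, and Nmd-/- mice lose motoneurons. The cultures were not otherwise treated as far as the labels say, and the age of the animals is not in the labels. The labels do not tell whether the 3 replicates are separate cultures, so a p-value here reflects only the spread among libraries, part of which may be technical.

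The clustered protocadherins lie in the tandem arrays Pcdha, Pcdhb and Pcdhg. In Pcdha and Pcdhg each variable first exon has its own promoter and is spliced to constant exons shared by the array, whereas a Pcdhb gene is a single large exon with no constant part. Each neuron uses a small choice of these promoters, which gives its surface a combination that matches only like combinations on other cells, the basis of self-avoidance of dendrites and axons. In the mouse spinal cord Pcdhg is known for the survival of interneurons. The non-clustered members are single genes scattered over the genome. Those of the delta-1 class (Pcdh1, Pcdh7, Pcdh9, Pcdh11x) and of the delta-2 class (Pcdh8, Pcdh10, Pcdh17, Pcdh18, Pcdh19) adhere weakly and act in axon growth, cell sorting and synapses.

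The 3 promoters below belong to members with different behaviour across libraries, as described further on: Pcdh17 stood lowest in replicate 2 of both genotypes, Pcdh8 was highest in replicate 2 of Nmd-/- and lowest in replicate 2 of Nmd+/+, and Pcdh18 stood highest in replicate 2 of both. Each runs 5′ to 3′ on the strand of the gene, from 250 bases before to 50 after the start (RefSeq, GRCm38.p6), and capitals mark CCAAT on either strand. They cover chr14:84443313-84443612 on the plus strand, chr14:79771263-79771562 on the minus strand and chr3:49757267-49757566 on the minus strand.
Pcdh17: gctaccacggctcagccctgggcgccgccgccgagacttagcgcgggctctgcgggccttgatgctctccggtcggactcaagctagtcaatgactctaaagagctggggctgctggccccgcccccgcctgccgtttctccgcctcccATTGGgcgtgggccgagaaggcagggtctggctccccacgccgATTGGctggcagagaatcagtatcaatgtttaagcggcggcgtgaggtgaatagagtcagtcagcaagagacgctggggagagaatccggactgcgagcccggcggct
Pcdh8: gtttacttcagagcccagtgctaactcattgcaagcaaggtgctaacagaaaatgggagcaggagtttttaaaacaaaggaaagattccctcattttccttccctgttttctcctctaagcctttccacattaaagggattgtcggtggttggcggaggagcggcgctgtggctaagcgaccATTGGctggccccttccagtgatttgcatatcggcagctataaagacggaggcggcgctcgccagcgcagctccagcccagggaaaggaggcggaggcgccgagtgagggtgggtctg
Pcdh18: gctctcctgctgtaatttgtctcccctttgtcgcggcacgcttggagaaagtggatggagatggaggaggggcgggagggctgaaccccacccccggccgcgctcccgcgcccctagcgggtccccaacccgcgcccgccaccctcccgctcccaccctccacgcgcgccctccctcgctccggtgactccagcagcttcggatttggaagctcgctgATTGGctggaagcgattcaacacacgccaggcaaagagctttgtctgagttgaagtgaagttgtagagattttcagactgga

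CCAAT, searched on both strands after these sequences had been seen, was found at positions -101 and -58 in Pcdh17, at -68 in Pcdh8 and at -32 in Pcdh18, where 0 is the start and the position is that of the leftmost base of the motif. It was present in 8 of the 9 non-clustered genes that the promoter table holds, all but Pcdh7, and in 37.4% of all 32851 promoters. The TATAA motif, likewise on both strands, was found in 3 of the 9 genes, Pcdh8, Pcdh9 and Pcdh15, and in 24.9% of all promoters. The Pcdh17 window holds 26 CpG dinucleotides, that of Pcdh18 23 and that of Pcdh8 14, against a median of 7 over all promoters. The Pcdh7 window holds 11, and those of Pcdh15 and Pcdh20, members with means under 1 FPKM, hold 8 and 4. These matches describe letters in a window of 300 bases and were not tested for binding.

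Of the 36 members, 1 row stood for Pcdha, 22 rows for single Pcdhb genes, 1 row for Pcdhg and 12 rows for non-clustered genes. The Pcdha row carries the symbol Pcdha2 in the files (ENSMUSG00000007440, chromosome 18, 36930285 to 37187657, GRCm38), and its locus takes in the start of all 14 Pcdha genes of the GENCODE M21 annotation, in which the same identifier is named Pcdha11. The Pcdhg row carries the symbol Pcdhga9 (ENSMUSG00000023036, chromosome 18, 37674335 to 37841873) and takes in 20 of the 22 Pcdhg genes, all but Pcdhga1 and Pcdhga2; its identifier is named Pcdhgc4 in M21. The values of these rows are therefore given as those of the Pcdha row and the Pcdhg row, and no value is given for a single Pcdha or Pcdhg member. Summed over the 36 members, protocadherins made up between 0.0427% and 0.0691% of a library's summed FPKM.

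The cultures were checked against cell type markers before the members were compared. Of 5 motoneuron markers in the files, Isl1 alone reached a mean of 1 FPKM, Chat did not exceed 0.0692 FPKM and Mnx1 did not exceed 0.0247 FPKM in any library. The defining markers of motoneurons were thus near 0, and the levels below are those of the culture as sequenced. The summed FPKM of 6 markers of all neurons was 895, 445 and 687 in Nmd-/- replicates 1 to 3 and 911, 470 and 916 in Nmd+/+ replicates 1 to 3. The libraries numbered 2 stood apart by 6 fibroblast and meningeal markers, which summed to 173.5 FPKM in Nmd-/- and 140.8 FPKM in Nmd+/+, against 2.22 to 3.52 FPKM in the other 4 libraries. Ighmbp2 measured 0.876, 0.788 and 0.598 FPKM in Nmd-/- replicates 1 to 3 and 1.44, 1.303 and 1.09 FPKM in Nmd+/+. The genotypes thus did not overlap, with Nmd-/- lower, as in 0.91% of the genes tested below. Each library summed to between 664628 and 693258 FPKM over all genes, and the tables carry no read counts.

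The Pcdhg row was the highest member in all 6 libraries. It measured 207, 180 and 165 FPKM in Nmd-/- replicates 1 to 3 and 222, 142 and 176 FPKM in Nmd+/+. Replicate 1 was the highest of each genotype, and the genotypes overlapped. The Pcdha row measured 47.5, 33.4 and 45.4 FPKM in Nmd-/- and 46.1, 38.1 and 54.9 FPKM in Nmd+/+, with replicate 2 lowest in both genotypes. The Pcdhg row held between 40.9% and 54.0% of all protocadherin FPKM, the 12 non-clustered genes together 29.1% to 36.7%, the Pcdha row 9.90% to 12.9% and the 22 Pcdhb genes together 6.86% to 9.69%.

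Among the non-clustered genes, the delta-1 gene Pcdh11x, which is X-linked, had the highest mean. It measured 31.3, 15.8 and 22.5 FPKM in Nmd-/- replicates 1 to 3 and 32.3, 14.2 and 33.0 FPKM in Nmd+/+. Pcdh9, another delta-1 gene, measured 22.4, 12.2 and 16.5 FPKM in Nmd-/- and 23.6, 12.1 and 23.2 FPKM in Nmd+/+. Both were lowest in replicate 2 of each genotype and lower in Nmd-/- replicate 3 than in Nmd+/+ replicate 3. Pcdh7, known to bind a protein phosphatase, measured 15.2, 10.7 and 13.4 FPKM in Nmd-/- and 14.6, 9.502 and 14.4 FPKM in Nmd+/+. Pcdh1, known in human for a role in the airway epithelium, measured 13.8, 6.98 and 10.4 FPKM in Nmd-/- and 15.0, 6.37 and 13.6 FPKM in Nmd+/+. The same low replicate 2 was seen in both of these genes, and the genotypes overlapped in all 4 delta-1 genes.

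The delta-2 genes did not share 1 pattern. Pcdh10, which acts in axon growth and in the removal of synapses, measured 22.0, 16.7 and 20.4 FPKM in Nmd-/- replicates 1 to 3 and 24.6, 15.7 and 25.4 FPKM in Nmd+/+. Pcdh17, which acts in the extension of axons along each other, measured 14.0, 6.70 and 12.6 FPKM in Nmd-/- and 14.0, 6.18 and 14.9 FPKM in Nmd+/+. The X-linked Pcdh19, whose human counterpart is mutated in an epilepsy that affects mostly females, measured 14.7, 8.06 and 11.6 FPKM in Nmd-/- and 14.4, 7.36 and 14.1 FPKM in Nmd+/+. These 3 genes were lowest in replicate 2 of each genotype.

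Pcdh8 and Pcdh18 behaved otherwise. Pcdh8, an activity-regulated member that binds N-cadherin, measured 7.65, 10.4 and 7.31 FPKM in Nmd-/- replicates 1 to 3 and 9.39, 6.62 and 9.92 FPKM in Nmd+/+. It was highest in replicate 2 of Nmd-/- and lowest in replicate 2 of Nmd+/+, and the differences between genotypes within the replicate pairs were -0.27, 0.58 and -0.39 on the log2(FPKM + 1) scale. Pcdh18 measured 7.94, 8.21 and 7.77 FPKM in Nmd-/- and 7.57, 9.49 and 7.78 FPKM in Nmd+/+. It was the least variable of the 9 non-clustered genes relative to its mean, and replicate 2 was the highest of each genotype. The promoters of both genes are printed above. Of the 50-base windows of Pcdh8 8.30%, and of those of Pcdh7 20.4%, also occurred in transcripts of another gene, which makes their values less certain.

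Of the remaining 3 non-clustered genes none reached a mean of 1 FPKM. Pcdh15, which forms the tip links of hair cells with Cdh23, measured 1.21, 0.689 and 0.678 FPKM in Nmd-/- replicates 1 to 3 and 1.13, 0.562 and 1.16 FPKM in Nmd+/+. Pcdh20 measured 0.334, 0.612 and 0.329 FPKM in Nmd-/- and 0.428, 1.68 and 0.458 FPKM in Nmd+/+, so that replicate 2 was the highest of each genotype. Pcdh12, an endothelial member, did not exceed 0.0124 FPKM.

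**Figure D1:**
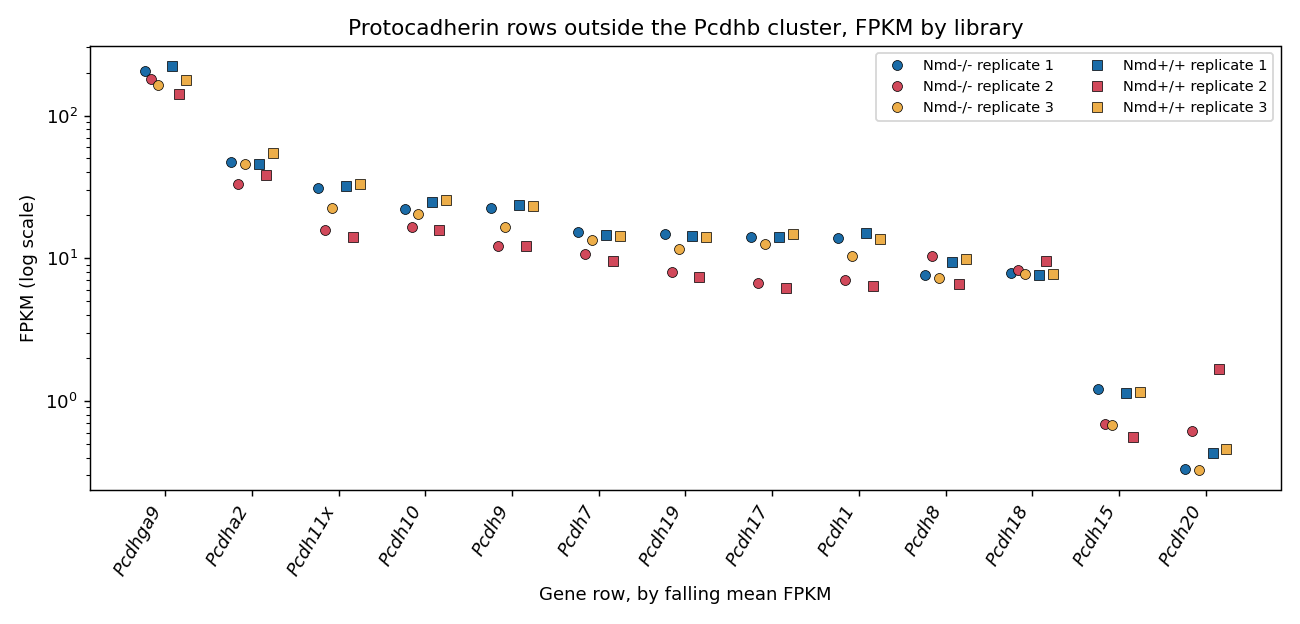
FPKM on a log axis of the Pcdha row, the Pcdhg row and the non-clustered genes other than Pcdh12, with 1 point per library (circles on the left Nmd-/-, squares on the right Nmd+/+, colours the replicate numbers). Replicate 2 lies lowest in both genotypes for most rows, such as Pcdh17 at 6.70 and 6.18 FPKM, and highest in both for Pcdh18 at 8.21 and 9.49 FPKM.

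The order of the non-clustered levels was resolved between few neighbours. FPKM are per length, so levels may be compared between genes: the means over the 6 libraries were 24.8 FPKM for Pcdh11x, 20.8 for Pcdh10, 18.3 for Pcdh9, 13.0 for Pcdh7, 11.7 for Pcdh19, 11.4 for Pcdh17, 11.01 for Pcdh1, 8.55 for Pcdh8 and 8.12 for Pcdh18. The ranges of neighbours over the 6 libraries overlapped throughout. Within libraries, Pcdh9 lay above Pcdh7, and Pcdh7 above Pcdh19, in 6 of 6, and Pcdh10 lay above Pcdh9 in 5 of 6. The other neighbours held their order in 3 or 4 of 6 libraries. Pcdh11x, between 14.2 and 33.0 FPKM, lay above Pcdh18, between 7.57 and 9.49 FPKM, in every library.

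The Pcdhb array was used unevenly, with the same gene first and the same gene last in every library. Pcdhb17 was the highest of the 22 genes in all 6 libraries, with 5.70, 2.71 and 4.44 FPKM in Nmd-/- replicates 1 to 3 and 5.83, 3.29 and 5.49 FPKM in Nmd+/+. It held between 11.9% and 14.5% of the summed Pcdhb FPKM. Pcdhb20 ranked from 2 to 3, with 3.28, 1.97 and 2.69 FPKM in Nmd-/- and 3.27, 2.25 and 3.48 FPKM in Nmd+/+. Pcdhb18 ranked from 2 to 4, with 2.97, 2.21 and 2.84 FPKM in Nmd-/- and 2.99, 2.81 and 3.39 FPKM in Nmd+/+. Pcdhb2, at 2.72, 1.43 and 2.12 FPKM in Nmd-/- and 2.79, 1.47 and 2.75 FPKM in Nmd+/+, ranked from 4 to 6. The ranges of Pcdhb18 and Pcdhb20 overlapped, so their order was not resolved. Ranks in the middle shifted between libraries, that of Pcdhb5 from 10 to 18.

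At the other end, Pcdhb1, the first gene of the array, ranked last in all 6 libraries, between 0.0330 and 0.0997 FPKM. Pcdhb4, Pcdhb13 and Pcdhb21 also had means under 1 FPKM, and the other 18 Pcdhb genes had means of at least 1. Pcdhb genes are near copies of each other in part, and between 0% of 50-base windows in Pcdhb1 and 12% in Pcdhb12 occurred in another Pcdhb gene. Over any gene the share was 64.2% for Pcdhb12, whose value is therefore uncertain, and 3.60% for Pcdhb17.

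**Figure D2:**
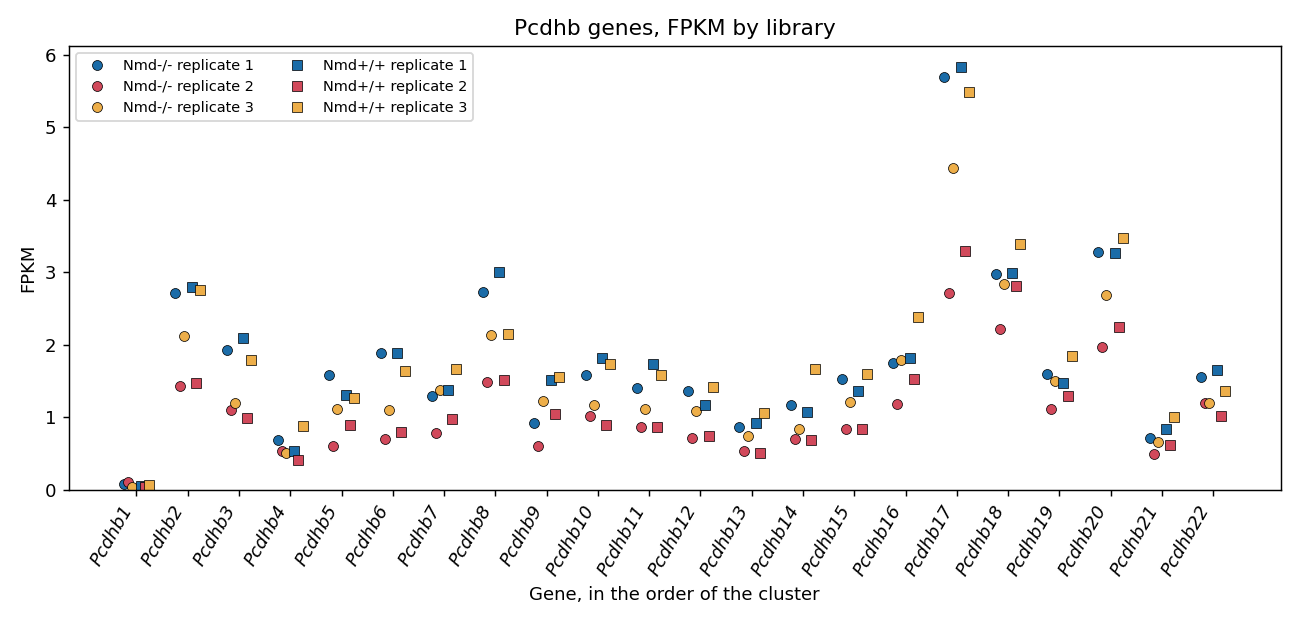
FPKM of the 22 Pcdhb genes in the order of the array, with 1 point per library (circles on the left Nmd-/-, squares on the right Nmd+/+, colours the replicate numbers). Pcdhb17 lies highest, between 2.71 and 5.83 FPKM, Pcdhb1 lies below 0.1 FPKM, and replicate 2 is the lowest point of its genotype in most genes.

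The comparison of Nmd-/- with Nmd+/+ called no protocadherin. Genes that averaged 1 FPKM or more were tested with limma on log2(FPKM + 1), which covered 14611 genes and 29 of the 36 members: 18 Pcdhb genes, 9 non-clustered genes, the Pcdha row and the Pcdhg row. At an adjusted p of 0.05, 0 of the 29 members passed, and 0% of all tested genes did. At an unadjusted p of 0.05, 0 members passed and 0.445% of all genes did. In 0 members did the Nmd-/- values all lie below the Nmd+/+ values, as they did in 0.91% of all genes. With the replicate number as a block, limma again called 0 members, and 1 had an unadjusted p under 0.05, against 4.87% of all genes.

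The member with the smallest p was Pcdhb9. It measured 0.914, 0.606 and 1.22 FPKM in Nmd-/- replicates 1 to 3 and 1.52, 1.04 and 1.55 FPKM in Nmd+/+. It was lower in Nmd-/- in each of the 3 pairs, while the groups overlapped, since Nmd-/- replicate 3 lay above Nmd+/+ replicate 2. Its log2 difference was -0.31 (SE 0.17, 95% interval -0.72 to 0.10), with an adjusted p of 0.9997 in limma, and an adjusted p of 0.990 with the replicate block. With a pseudocount of 0.1 in place of 1 the difference was -0.56, and the ratio of mean FPKM was 0.668. With the pseudocount of 1 and 1 library left out, the log2 difference ranged from -0.43 without Nmd-/- replicate 3 to -0.19 without Nmd-/- replicate 2. The exact permutation test of 3 against 3 values gave p = 0.2, where the smallest possible is 0.1. Pcdhb18 and Pcdhb16 came next, with log2 differences of -0.15 (SE 0.14) and -0.18 (SE 0.17). With a pseudocount of 0.1 that of Pcdhb16 was -0.27. Pcdhb16 measured 1.75, 1.19 and 1.79 FPKM in Nmd-/- and 1.82, 1.53 and 2.38 FPKM in Nmd+/+. It was lower in Nmd-/- in each of the 3 pairs.

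By estimate, 27 of the 29 members were lower in Nmd-/-, against 44% of all tested genes. The exceptions were Pcdh7 with a log2 difference of 0.04 (95% interval -0.44 to 0.52) and the Pcdhg row with 0.05 (95% interval -0.40 to 0.49). The median log2 difference was -0.12 over the members and 0.02 over all tested genes. Members share libraries and cells and are not independent, so these shares carry no test. The 95% intervals, taken from the fit without the replicate block, were wide beside the estimates. That of the Pcdha row ran from -0.59 to 0.32, that of Pcdh11x from -0.99 to 0.70 and that of Pcdh17 from -0.90 to 0.82. This fit leaves the differences by replicate number in the spread. With the block the SE of Pcdh11x was 0.135 in place of 0.363, and that of Pcdh17 0.11 in place of 0.37. The median SE over the members was 0.12 in place of 0.20.

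The lower estimates rested mostly on pair 3, whose libraries were the least closely paired by their values. All 29 members were lower in Nmd-/- replicate 3 than in Nmd+/+ replicate 3, as were 42.4% of all tested genes, while 18 members were lower in pair 1 and 14 in pair 2, against 50.6% of all genes in pair 1 and 47.3% in pair 2. The median log2 difference over the members was -0.03 in pair 1, 0.01 in pair 2 and -0.26 in pair 3, and over all genes it was 0.04 in pair 3. Members lower in Nmd-/- in all 3 pairs numbered 7, namely Pcdhb2, Pcdhb7, Pcdhb8, Pcdhb9, Pcdhb16, Pcdhb17 and Pcdhb18, and 10.6% of all genes did the same. In pair 3 the markers of all neurons moved with the members: 6 of 6 were lower in Nmd-/-, with a median log2 difference of -0.41, and their sum was 687 FPKM in Nmd-/- and 916 FPKM in Nmd+/+. Markers of the oligodendrocyte lineage were lower in 4 of 4, with a median of -0.74, and markers of dividing cells were higher in 3 of 3, with a median of 0.52. The libraries of pair 3 also differed in the sex marker Xist, at 0.143 FPKM in Nmd-/- and 272.6 FPKM in Nmd+/+. Pair 2 differed the other way, at 258.9 FPKM in Nmd-/- and 0.155 FPKM in Nmd+/+. In pair 1 Xist measured 224.5 and 226.3 FPKM. The part of these cell types and of sex in the result was not tested. Fewer neurons and less RNA per neuron cannot be told apart in such cultures.

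**Figure D3:**
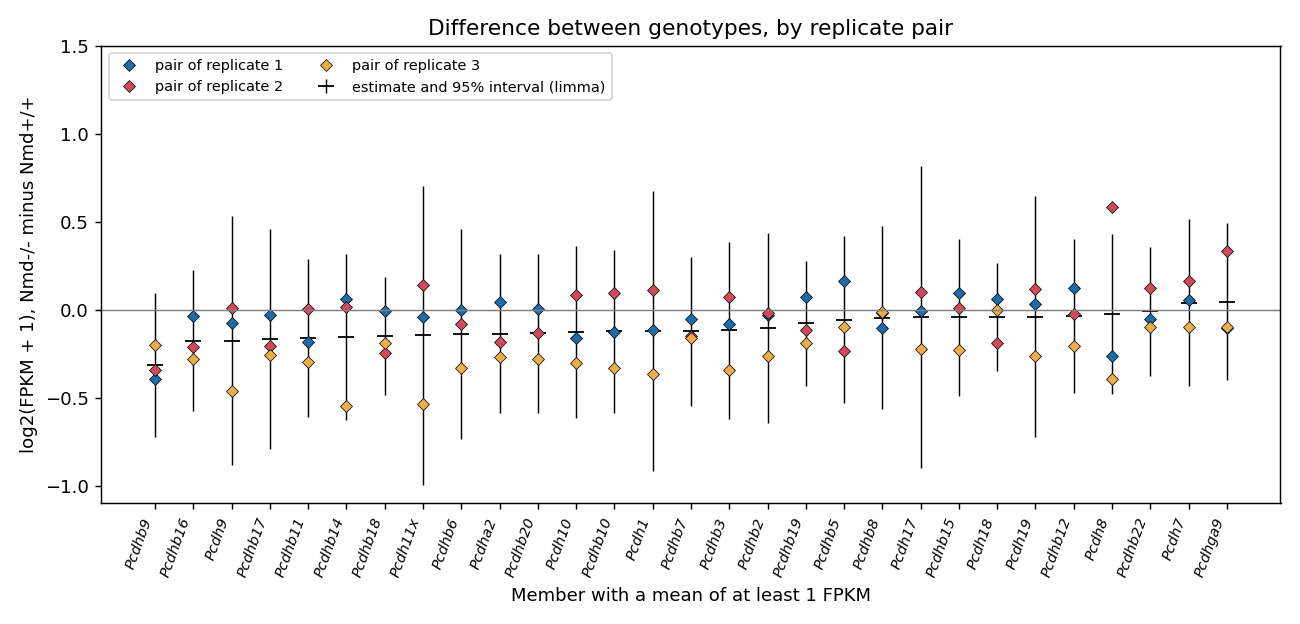
Difference in log2(FPKM + 1), Nmd-/- minus Nmd+/+, for the 29 members with a mean of at least 1 FPKM, ordered by the estimate. Diamonds are the replicate pairs, dashes the estimates and lines their 95% intervals in the fit without the replicate block. Every interval crosses 0, and every pair 3 diamond lies below 0, that of Pcdh18 at -0.00073.

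Summed by class, the genotypes differed by less than 1 SD of either group. The Pcdhb sum averaged 31.4 ± 8.21 FPKM in Nmd-/- and 35.9 ± 9.09 FPKM in Nmd+/+ (SD, n = 3 each). The non-clustered sum averaged 123.6 ± 26.7 FPKM in Nmd-/- and 134.9 ± 39.1 FPKM in Nmd+/+. The Pcdha row averaged 42.1 ± 7.65 FPKM in Nmd-/- and 46.3 ± 8.41 FPKM in Nmd+/+. The Pcdhg row averaged 183.8 ± 21.1 FPKM in Nmd-/- and 180.2 ± 39.9 FPKM in Nmd+/+. As log2 ratios of means these are -0.19 for Pcdhb, -0.13 for the non-clustered genes, -0.14 for Pcdha and 0.03 for Pcdhg. These ratios depended on single libraries. With 1 library left out they ranged from -0.39 (without Nmd+/+ replicate 2) to -0.0093 (without Nmd-/- replicate 2) for Pcdhb, from -0.35 to 0.021 for the non-clustered genes and from -0.26 to 0.0043 for Pcdha, with the same libraries at the ends. For Pcdhg they ranged from -0.12 without Nmd+/+ replicate 2 to 0.21 without Nmd+/+ replicate 1. Leaving out 1 library makes the groups unequal in replicate number, and replicate 2 was low in both genotypes for Pcdha, Pcdhb and the non-clustered genes. With replicate 2 of both genotypes left out, the ratios were -0.21 for Pcdhb, -0.20 for the non-clustered genes, -0.12 for Pcdha and -0.10 for Pcdhg. Sums over members were given no test.

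Some protocadherins differed by replicate number. The labels number the replicates of both genotypes 1 to 3, and a moderated F test in limma over the numbers, with genotype as a term, called 12 of the 29 members at an adjusted p of 0.05, beside 28.6% of all tested genes. Those called were 7 of the 9 non-clustered genes (Pcdh1, Pcdh7, Pcdh9, Pcdh10, Pcdh11x, Pcdh17 and Pcdh19), 4 of the 18 Pcdhb genes (Pcdhb2, Pcdhb6, Pcdhb8 and Pcdhb17) and the Pcdha row. Pcdh17 had the smallest adjusted p in limma, 0.00173, with a log2 difference of -1.01 between replicates 2 and 1. Pcdh1 followed with -1.001 (adjusted p = 0.00348) and Pcdh11x with -1.04 (adjusted p = 0.00452). Pcdhb17 differed by -0.76 (adjusted p = 0.00812), and Pcdh8 by -0.02 (adjusted p = 0.992).

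The count of 12 depended on single libraries, and the count over all tested genes shifted as well. Leaving out 1 library leaves only 1 library under its replicate number. Pcdh1, Pcdh9, Pcdh11x, Pcdh17, Pcdh19 and Pcdhb17 were called whichever library was left out. Leaving out replicate 2 of both genotypes left 1 call, the Pcdhg row, beside 19.5% of all tested genes. With no filter on low values limma called 0 of 36 members and 0 of 27711 genes. At an unadjusted p under 0.05 there were then 16 members and 6348 genes.

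The direction was nearly uniform. In 26 of the 29 members replicate 2 was the lowest library of its genotype in both genotypes, against 21.7% of all tested genes, and in 1, Pcdh18, it was the highest in both, against 23.7% of all genes. All 18 Pcdhb genes were among the 26. The level in replicate 2 over the mean of replicates 1 and 3 had a median of 0.660 in Nmd-/- and 0.588 in Nmd+/+ over the members, and of 1.004 in Nmd-/- and 1.013 in Nmd+/+ over all tested genes. The exceptions were Pcdh18, Pcdh8 and the Pcdhg row, in which Nmd-/- replicate 2 lay between replicates 1 and 3.

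**Figure D4:**
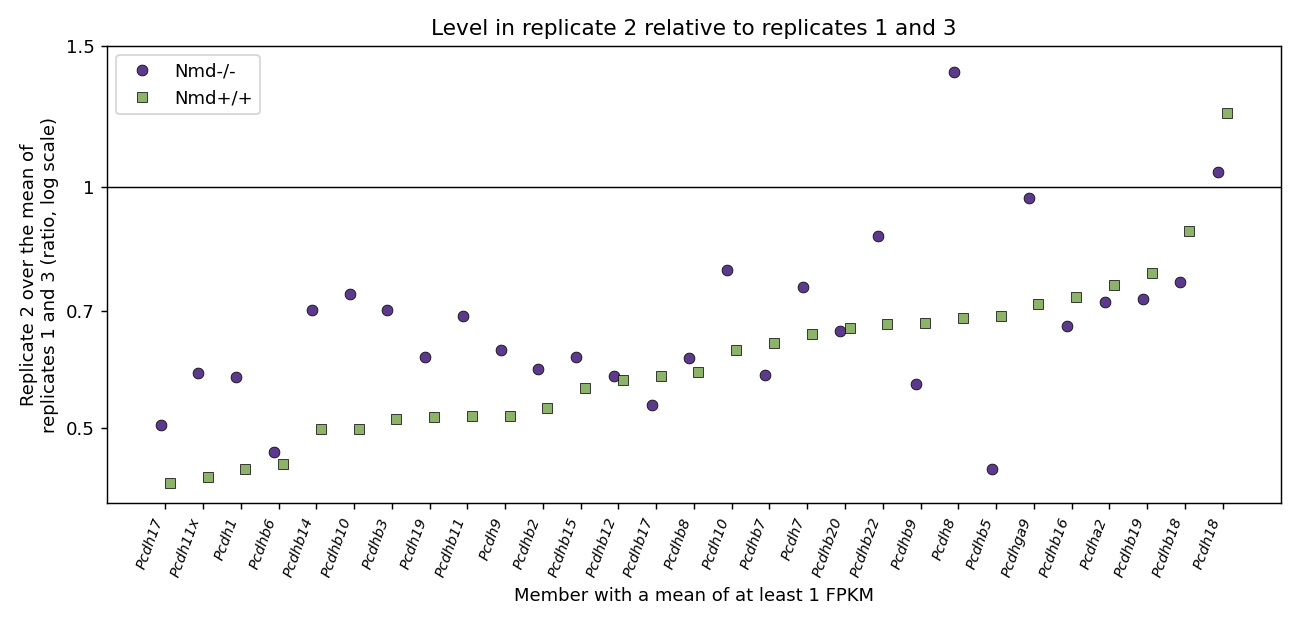
Level in replicate 2 over the mean of replicates 1 and 3 on a log axis, for the 29 members with a mean of at least 1 FPKM (circles on the left Nmd-/-, squares on the right Nmd+/+). Nearly all points lie below 1; Pcdh18 lies above 1 in both genotypes, and Pcdh8 lies above 1 in Nmd-/- and below 1 in Nmd+/+.

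Other cell types moved with the replicate number. The same ratio of replicate 2 to replicates 1 and 3 was 0.562 in Nmd-/- and 0.515 in Nmd+/+ for the sum of the 6 markers of all neurons, and 0.639 in Nmd-/- and 0.492 in Nmd+/+ for 6 markers of other spinal neurons such as Gad1, and all 12 of these markers were called. For 6 markers of radial glia and astrocytes the ratio was 1.21 in Nmd-/- and 1.20 in Nmd+/+, but Vim made up most of this sum. Without Vim, a sum added after the data were seen, it was 0.784 in Nmd-/- and 0.973 in Nmd+/+. Of the 6 markers 2 were highest in replicate 2 of both genotypes. The fibroblast sum was higher in replicate 2, as given above. Set against 1000 FPKM of neuron markers, a scale chosen after the data were seen, the Pcdhb sum was 43.8, 51.4 and 46.6 in Nmd-/- replicates 1 to 3 and 44.4, 54.0 and 45.6 in Nmd+/+. The non-clustered sum on this scale was 168.1, 218.1 and 179.4 in Nmd-/- and 172.4, 190.8 and 172.3 in Nmd+/+. On this scale replicate 2 was the highest library of each genotype for both sums. The part of the neuron, glial and fibroblast content in the differences by replicate number was not tested.

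**Figure D5:**
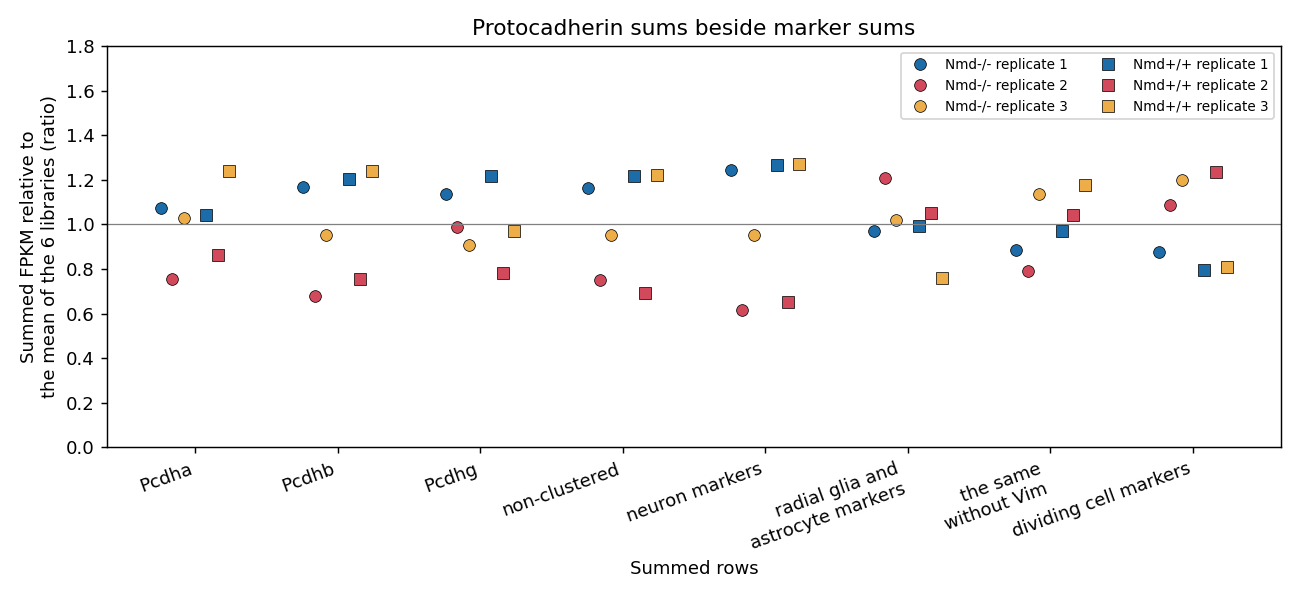
Summed FPKM relative to the mean of the 6 libraries for the 4 protocadherin classes and 3 marker lists, 1 of them also without Vim, with 1 point per library (circles on the left Nmd-/-, squares on the right Nmd+/+, colours the replicate numbers). Replicate 2 is the lowest of its genotype for Pcdha, Pcdhb, the non-clustered genes and the neuron markers, and the highest for the radial glia and astrocyte markers with Vim but not without it.

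Of the genes that act on protocadherins, none passed the genotype test, and neither did any other tested gene. Clustered promoters are opened by CTCF and the cohesin complex and are silenced with the help of DNA methyltransferases and Smchd1. Of 18 such regulators 16 were tested, and limma called 0 of them by genotype. At an unadjusted p under 0.05 there were 0, beside 0.445% of all genes. By replicate number 1 was called, beside 28.6% of all tested genes. By estimate 13 were higher in Nmd-/-, as were 56% of all genes. The cohesin subunit gene Rad21 had the highest mean, with 135.2, 127.0 and 130.5 FPKM in Nmd-/- replicates 1 to 3 and 137.3, 122.9 and 112.5 FPKM in Nmd+/+. The smallest p of the list was that of Dnmt1, the maintenance methyltransferase, with 22.4, 20.7 and 22.2 FPKM in Nmd-/- and 22.5, 18.7 and 17.4 FPKM in Nmd+/+. Its log2 difference was 0.15 (SE 0.14, adjusted p = 0.9997).

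Partners and proteases of protocadherins were, like all tested genes, not called by genotype. The list holds the kinases that bind the constant parts of Pcdha and Pcdhg, the WAVE complex and Rac1, which link some delta members to actin, and Adam10 and the gamma-secretase subunits, which cleave Pcdhg. Of 25 genes 24 were tested, and 0 were called by genotype in limma. At an unadjusted p under 0.05 there were 0, beside 0.445% of all genes. By replicate number 6 were called, a share near the 28.6% of all genes. Rac1 had the highest mean, with 468.7, 427.8 and 439.0 FPKM in Nmd-/- and 487.9, 447.1 and 425.1 FPKM in Nmd+/+. Ptk2b, which encodes such a kinase, had the smallest p, with 1.44, 1.70 and 1.61 FPKM in Nmd-/- and 1.20, 1.40 and 0.860 FPKM in Nmd+/+. Its Nmd-/- values all lay above its Nmd+/+ values, as in 1.76% of all genes, and its log2 difference was 0.27 (SE 0.15, adjusted p = 0.9997).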

How the data were processed

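RNA was measured in 3 Nmd-/- and 3 Nmd+/+ libraries. The deposited values are FPKM per gene that the authors made with Cufflinks, per the file headers, 1 table per library. Cufflinks 2.2.1, SAMtools 1.3, Trim Galore 0.4.0 with cutadapt 1.8, FastQC 0.10.1 and the build GRCm38 stand in the submitters' processing notes. The aligner's version, the annotation release and any use of strand were not given in the sources used here. FPKM are relative to each library's own total.

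Computed here in R 4.3.3 with limma 3.58.1 were two-sided fits with an intensity trend on log2(FPKM + 1), which understates changes of low genes. Genes had a mean of at least 1 FPKM and an accepted status in every library (35 of 39174 failed in at least 1), and p-values were Benjamini-Hochberg adjusted over all 14611. The script was tested on simulated data. For the genotype test these held no differences by replicate number, so they do not show what that fit recovers here. Members and lists were chosen with earlier results of these data known. The rule for named genes took every non-clustered member tested, the 4 highest and the lowest of each array, the 3 smallest p-values for genotype and for replicate number, and from each list the highest mean and the smallest p; other names were chosen after their values were seen. The rule's C-type Pcdha and Pcdhg members have no row of their own. Deviations of same-numbered libraries from their genotype means correlated across genes at 0.82, 0.70 and 0.39 for numbers 1, 2 and 3. Nmd+/+ replicate 3 also correlated with Nmd-/- replicate 1, at 0.28. Over the tested members alone it correlated at 0.43 with Nmd-/- replicate 1 and at 0.35 with Nmd-/- replicate 3. The values thus pair numbers 1 and 2, while the pairing of number 3 is weak and, over the members, not the closest. The pairing comes from these values, not from a label. Alternatives were another pseudocount, filters, scalings, no trend, no genotype term, the replicate block and libraries left out. Windows of 50 bases were compared over GENCODE M21 transcripts.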

Additional observations from a re-analysis of the deposited data

How the results depend on the processing

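The genotype comparison called 0 members and 0 of all tested genes under every alternative tried, a pseudocount of 0.1, no filter, a mean of at least 5 FPKM, both scalings, no trend, each library left out, replicate 2 of both genotypes left out and the replicate block; the block's count of members was 0. Of 232 alternative values of 17 named members, 202 kept the sign and 30 turned it, and none passed (smallest adjusted p 0.956). With replicate 2 of both genotypes left out, the log2 difference turned to -0.020 for Pcdh7, 0.030 for Pcdh18 and -0.099 for the Pcdhg row. Leaving out 1 library each gave ranges across 0: -0.47 to 0.11 for Pcdh1, -0.53 to 0.094 for Pcdh11x, -0.41 to 0.25 for Pcdh17, -0.097 to 0.049 for Pcdh18, -0.33 to 0.17 for Pcdh19, -0.15 to 0.17 for Pcdh7, -0.19 to 0.073 for Pcdh8, -0.48 to 0.030 for Pcdh9, -0.27 to 0.019 for the Pcdha row, -0.11 to 0.21 for the Pcdhg row, -0.38 to 0.070 for Pcdhb17, -0.31 to 0.057 for Pcdhb2 and -0.28 to 0.0051 for Pcdhb20. These ranges come from groups left unequal in replicate number. With median-of-ratios scaling the log2 ratios of the class sums were -0.22 for Pcdhb, -0.15 for the non-clustered genes, -0.17 for Pcdha and 0.0058 for Pcdhg. With replicate 2 of both genotypes left out they were -0.21, -0.20, -0.12 and, with the sign turned, -0.10 for the Pcdhg row.

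Calls by replicate number were 6 to 19 members and 2280 to 6470 genes with 1 library left out. They were 0 members and 0 of 27711 genes with no filter (6348 genes had an unadjusted p under 0.05). With replicate 2 of both genotypes left out they were 1 member and 19.5% of all tested genes. The cause was not tested. Other settings gave 12 members, beside 26% to 27.7% of all tested genes. At a mean of at least 5 FPKM 8 of 11 members were called, beside 31% of the genes tested there. Sums without the C-type members were not run, since the Pcdha and Pcdhg arrays have 1 row each. Without read counts, counting depth is unknown. The deposited 95% intervals of Pcdhb17, the highest Pcdhb gene, had half-widths of 6.33% to 10.9% of the value. Lower genes had wider ones, with 13.0% to 21.2% for Pcdhb9, 13.06% to 26.05% for Pcdhb6 and 57.95% to 115.5% for Pcdhb1.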

Other observations

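The large atypical cadherins, relatives of the protocadherins with long extracellular parts that act in planar polarity and growth control, were tested for 7 genes. Limma called 0 by genotype, as it did of all tested genes. At an unadjusted p under 0.05 there were 0, beside 0.445% of all genes. By replicate number 5 were called, beside 28.6% of all tested genes. Fat1, the highest, measured 46.5, 64.0 and 46.3 FPKM in Nmd-/- replicates 1 to 3 and 41.4, 52.9 and 32.3 FPKM in Nmd+/+, so that replicate 2 was the highest of each genotype. Celsr3, a neuronal member, measured 6.03, 2.66 and 4.06 FPKM in Nmd-/- and 6.15, 2.24 and 5.00 FPKM in Nmd+/+, lowest in replicate 2 of each; it was named after its values were seen. Celsr1 had the smallest p for genotype, with 11.4, 12.8 and 10.6 FPKM in Nmd-/- and 11.4, 8.83 and 7.91 FPKM in Nmd+/+. Its log2 difference was 0.29 (SE 0.16, adjusted p = 0.9997 in limma).

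Pcdh11x and Pcdh19 are X-linked, and the libraries differed in sex markers. Xist measured 224.5, 258.9 and 0.143 FPKM in Nmd-/- replicates 1 to 3 and 226.3, 0.155 and 272.6 FPKM in Nmd+/+. The libraries with Xist near 0, Nmd-/- replicate 3 and Nmd+/+ replicate 2, had Eif2s3y at 19.6 and 21.2 FPKM. In these libraries Pcdh11x measured 22.5 and 14.2 FPKM, against 31.3 and 15.8 FPKM in Nmd-/- replicates 1 and 2 and 32.3 and 33.0 FPKM in Nmd+/+ replicates 1 and 3. Pcdh19 measured 11.6 and 7.36 FPKM in them, against 14.7 and 8.06 FPKM in Nmd-/- replicates 1 and 2 and 14.4 and 14.1 FPKM in Nmd+/+ replicates 1 and 3. Of autosomal members, Pcdh9 on chromosome 14 measured 16.5 and 12.1 FPKM in the libraries with Xist near 0. It measured 22.4 and 12.2 FPKM in Nmd-/- replicates 1 and 2 and 23.6 and 23.2 FPKM in Nmd+/+ replicates 1 and 3. Pcdh18, on chromosome 3, measured 7.77 and 9.49 FPKM in the libraries with Xist near 0. It measured 7.94 and 8.21 FPKM in Nmd-/- replicates 1 and 2 and 7.57 and 7.78 FPKM in Nmd+/+ replicates 1 and 3. The part of sex in these levels was not tested.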
